A study of Mus musculus with 13 samples.

Results

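A set of 10 genes of transcription factors that set epidermal fate were followed: Prdm1, Ovol1, Grhl1, Grhl3, Gata3, Sox9, Tfap2a, Tfap2c, Ehf and Elf3. Members were all probe sets, the short probe groups that report a transcript on the array, whose platform annotation named 1 of these genes and no other, with older synonyms accepted. They were 17 of the 20393 probe sets named to 1 gene, and covered 9 of the 10 listed genes, of 12385 genes in all. No probe set was named to Grhl3 in the table used here. The cells were cultured primary mouse keratinocytes that carried, by retroviral infection, DNp63alpha fused to an estrogen receptor domain, which tamoxifen activates. One group was untreated, and 12 groups had received tamoxifen 20 to 240 min before collection, spaced by 20 min, with 1 array each. The untreated array was placed by its title, since its description mentions tamoxifen like the others. Strain and age of the mice, and whether the arrays came from separate cultures, are not given in the sources used here, so a p-value speaks only of the scatter among these 13 arrays, which may be technical. All groups carried the fusion, and cells without it or left for 4 h without tamoxifen were not analysed here, so induction and elapsed time cannot be told apart.

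p63 is the factor that establishes the stratified epithelium, and its DNp63alpha isoform is the main one of basal keratinocytes. The listed factors act beside or below it. The AP-2 factors (Tfap2a, Tfap2c) work in basal and early differentiating cells, Sox9 in hair follicle progenitors, Ovol1, Gata3 and the grainyhead-like factors as cells leave the basal layer, and Prdm1 and the epithelial ETS factors (Ehf, Elf3) toward terminal differentiation.

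Of the 17 probe sets, 11 fell and 0 rose along a straight line fitted over the 13 arrays (limma, adjusted p under a threshold of 0.05 over all 20393 probe sets). Among all probe sets tested, 22.4% had a trend, 12.2% upward and 10.2% downward. Counted by gene, with the brightest probe set of each, 6 of the 9 genes fell, and 23.9% of all genes had a trend. The fall covered Prdm1, Sox9, Elf3, Ehf, Ovol1, Grhl1 and 1 of 3 probe sets of Tfap2a, while those of Tfap2c and Gata3 did not pass. The median change over 4 h was -0.32 on the log2 scale for the 17 probe sets and -0.0034 for all 20393. All 17 lay above the 40th percentile of mean level. Of 12 measured keratinocyte markers 11 lay at or above the 40th percentile of mean level. Krt14 and Krt5 were at percentiles 100 and 99.9, and Krt15 at 27.1. Melanocyte markers were also present, up to percentile 93.9 for Dct. In such bulk RNA, fewer cells of a type and less RNA per cell cannot be told apart. The median intensity of an array was 237.4 to 251.5, and the number of arrays limits the precision.

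**Figure D1:**
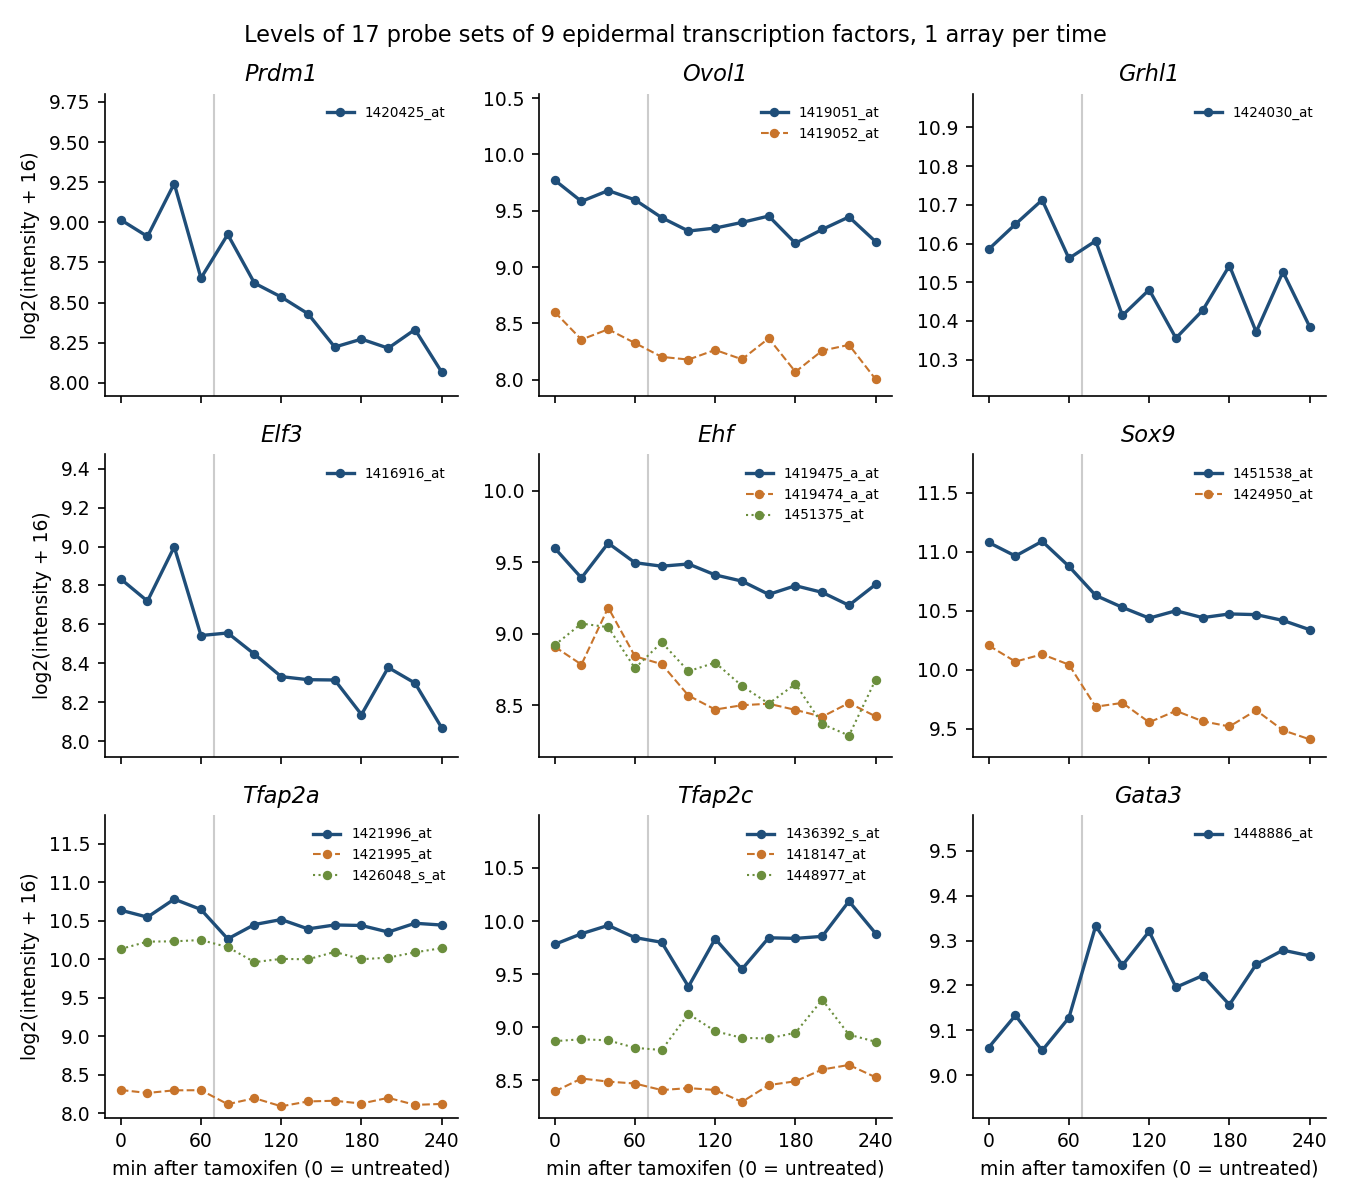
Level of each probe set, as log2(intensity + 16), against min after tamoxifen (0 is the untreated array), with 1 array per point and its own vertical range in each panel. Solid lines are the probe set with the highest mean of a gene, dashed and dotted lines the others, and the grey line marks the gap between 60 and 80 min. Prdm1 is highest at 40 min and lowest at 240 min. Sox9 drops across the grey line and is lower still at 240 min than at 80 min. Gata3 lies higher from 80 min on.

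Prdm1 (Blimp1), a zinc finger repressor of the upper epidermal layers, showed the largest fall of the 9 genes. Its probe set 1420425_at read 502 intensity units in untreated cells and 466, 589 and 386 at 20, 40 and 60 min. It then read 469.9, 378, 355, 329 and 283 from 80 to 160 min, and 293, 281, 306 and 252 from 180 to 240 min. The 40 min array was the highest and the 240 min array the lowest, and each of the 4 arrays from 180 min lay below each of the 4 arrays from 20 to 80 min. By the end of 4 h the line had fallen 2.02-fold (log2 change -1.02 ± 0.122, SE over 13 arrays; adjusted p = 0.00015), at percentile 0.456 of all slopes, counted from the steepest fall. A step between 60 and 80 min fitted beside the line came to -0.0057 ± 0.141 (SE; adjusted p = 0.989). With an error of that size, how evenly the fall was spread over the course was not resolved. In the 9 arrays from 80 min alone the slope was -0.25 ± 0.043 per hour (SE), close to the -0.25 of the whole course, with an adjusted p of 0.0906. Only 3 of 20393 probe sets (0.0147%) had a trend in those 9 arrays.

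Promoter windows from RefSeq were available for 6 of the 10 members: Elf3, Gata3, Grhl1, Grhl3, Prdm1 and Tfap2a. The 250 bases before the annotated start (build GRCm38.p6) are shown for Prdm1 and Elf3, the members with large falls among these 6, and for Gata3, which did not fall, so that the letters can be read beside the levels. Each runs 5′ to 3′ on the gene's strand, in lower case, with capitals for matches to the motifs searched.
Prdm1 (chr10:44458749-44458998, minus strand): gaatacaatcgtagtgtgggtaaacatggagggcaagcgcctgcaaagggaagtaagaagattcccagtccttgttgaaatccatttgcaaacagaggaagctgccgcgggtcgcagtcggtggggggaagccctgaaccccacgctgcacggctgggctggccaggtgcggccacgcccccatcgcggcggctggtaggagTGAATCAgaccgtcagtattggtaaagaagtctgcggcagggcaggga
Elf3 (chr1:135258473-135258722, minus strand): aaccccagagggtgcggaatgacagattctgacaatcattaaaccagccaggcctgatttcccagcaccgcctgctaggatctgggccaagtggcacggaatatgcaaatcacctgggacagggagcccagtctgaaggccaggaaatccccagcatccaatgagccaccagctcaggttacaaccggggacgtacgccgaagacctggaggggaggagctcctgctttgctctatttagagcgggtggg
Gata3 (chr2:9878601-9878850, minus strand): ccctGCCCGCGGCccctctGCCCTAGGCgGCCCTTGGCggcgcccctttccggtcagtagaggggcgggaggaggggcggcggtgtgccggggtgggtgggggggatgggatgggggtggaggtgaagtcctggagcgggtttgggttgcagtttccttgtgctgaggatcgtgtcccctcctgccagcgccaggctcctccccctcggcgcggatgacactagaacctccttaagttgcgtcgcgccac
On both strands 6 motifs were searched, none of which contains another: AP-1 (TGANTCA), the cyclic AMP element (TGACGTCA), AP-2 (GCCNNNGGC), grainyhead-like (AACCGGTT), ETS (CCGGAAGT) and a p53 family motif. The Prdm1 window held 1 match to TGANTCA, the letters searched for AP-1, where N is any base. It read TGAATCA, with A at the open base, and began 48 bases before the start. A match to TGANTCA was present in 6.75% of 32851 promoter windows of this length. The Gata3 window held 3 AP-2 matches beginning 246, 231 and 221 bases before its start, and AP-2 matches were present in 13.7% of windows. Of the 2 Grhl1 windows, that at chr12:24572037-24572286 (plus strand) held 1 AP-2 match, beginning 82 bases before its start. No match to these letters was found in the Elf3 and Grhl3 windows, in the other Grhl1 window or in either Tfap2a window. A match is a description of the letters and was not set against binding.

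Ovol1, a zinc finger repressor that slows the division of cells leaving the basal layer, also fell. Probe set 1419051_at read 858 in untreated cells, 751, 804 and 758 at 20, 40 and 60 min, and between 577 and 685 in the 9 arrays from 80 min. The untreated array was the highest, and no array from 80 min reached any array up to 60 min. Over 4 h it fell 1.34-fold (log2 change -0.42 ± 0.0909, SE; adjusted p = 0.00334). The second probe set, 1419052_at, was dimmer at 240.3 to 372 and fell 1.26-fold (adjusted p = 0.0243). That call was lost without the untreated array (adjusted p = 0.141), the 40 min array (0.0578) or the 240 min array (0.0917). Both probe sets varied together over the 13 arrays (Pearson r = 0.92, given as a description, since they report 1 gene).

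Grhl1, a grainyhead-like factor of desmosomal cadherin genes, changed less. Its probe set 1424030_at read 1520.1 in untreated cells and 1591, 1662, 1495 and 1543 from 20 to 80 min. It then read 1349, 1413, 1294 and 1361 from 100 to 160 min and 1476, 1309, 1459 and 1321 from 180 to 240 min. The late arrays all lay below the arrays from 20 to 80 min, but the distance was small. Over 4 h it fell 1.18-fold (log2 change -0.24 ± 0.0766, SE; adjusted p = 0.0324). This call was lost without the untreated (adjusted p = 0.0565), 20 min (0.0869), 40 min (0.0854), 200 min (0.0622) or 240 min array (0.0666), and after quantile normalization (0.0552).

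The epithelial ETS factors Elf3 and Ehf, activators of late differentiation genes, both fell. Elf3 (1416916_at) read 440.2 in untreated cells, 406, 495 and 357 at 20, 40 and 60 min, 360.3 at 80 min and 333, 306, 303 and 302 from 100 to 160 min. It ended at 265, 317, 299 and 252 from 180 to 240 min. The 40 min array was again the highest and the 240 min array the lowest. Over 4 h it fell 1.65-fold (log2 change -0.73 ± 0.109, SE; adjusted p = 0.000345).

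All 3 probe sets of Ehf passed the test, with sizes that differed. The brightest, 1419475_a_at, read 759 in untreated cells, 655, 778, 706 and 694 from 20 to 80 min, 702, 665, 644 and 603 from 100 to 160 min, and 629.9, 609, 571 and 634 from 180 to 240 min. It fell 1.25-fold (-0.32 ± 0.0735 on the log2 scale, SE; adjusted p = 0.0051). The probe sets 1419474_a_at and 1451375_at fell 1.51-fold and 1.53-fold (adjusted p = 0.00138 and 0.00115). In all 3 the arrays from 180 min lay below those from 20 to 80 min. Which transcripts of Ehf each probe set reports was not resolved.

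Sox9, the factor of hair follicle progenitors, fell in both of its probe sets. The brighter one, 1451538_at, read 2147 in untreated cells and 1982, 2162 and 1864 at 20, 40 and 60 min. It read 1569 at 80 min, 1462, 1371, 1433 and 1375 from 100 to 160 min, and 1406, 1400.2, 1353 and 1280.3 from 180 to 240 min. The groups up to 60 min and from 80 min did not overlap, and the later arrays ran from 1280.3 to 1569. The straight line gave a fall of 1.67-fold in 4 h (log2 change -0.74 ± 0.0995, SE; adjusted p = 0.000195). The second probe set, 1424950_at, fell 1.69-fold (adjusted p = 0.000186), from 1166 in untreated cells to 665 at 240 min.

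For Sox9 part of the fall lay between 60 and 80 min. With a step there fitted beside the line, the step was -0.36 ± 0.0663 on the log2 scale for 1451538_at (SE; adjusted p = 0.00596) and -0.33 ± 0.0718 for 1424950_at (adjusted p = 0.0142). Among all probe sets 5.6% had such a step, and among the 17 members 3 did, the third being 1421996_at of Tfap2a. The test of a step beside the line, here and for the other genes, was not among those planned. From 80 min alone the slope of 1451538_at was -0.073 ± 0.0239 per hour (SE; adjusted p = 0.289). Whether the shapes of Sox9 and Prdm1 differ was not tested.

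The AP-2 genes Tfap2a and Tfap2c, whose products bind the same GC-rich element and drive basal keratin genes, were each measured by 3 probe sets. Tfap2a read 1578, 1482, 1746 and 1589 on 1421996_at in untreated cells and at 20, 40 and 60 min. At 80 min it dropped to 1215, and the 8 arrays after that covered 1293 to 1449.6, so the arrays up to 60 min lay above all later ones. The line did not pass (log2 change in 4 h -0.24 ± 0.0964, SE; adjusted p = 0.0928), but the step beside it did (-0.30 ± 0.0796, adjusted p = 0.0415). Without the 80 min array the line passed too (adjusted p = 0.0174). The probe set 1421995_at, with the lowest level of the 3 at 256 to 299, fell 1.13-fold (adjusted p = 0.0471). Its call was kept only when the omitted array was that of 80, 120 or 200 min, with adjusted p from 0.0284 to 0.143 over the 13 omissions. The probe set 1426048_s_at read between 982 and 1202 and did not pass (adjusted p = 0.198).

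Tfap2c had no trend in any of its 3 probe sets. The brightest, 1436392_s_at, read 863 in untreated cells, 926, 979 and 903 at 20, 40 and 60 min, 875 at 80 min and 651, 896, 732 and 902 from 100 to 160 min. It ended at 898, 910.4, 1149 and 928. Its fitted change over 4 h was 0.13 ± 0.149 on the log2 scale (SE; adjusted p = 0.611), and without the 220 min array the slope was -0.00081 per hour. The probe sets 1418147_at, at 298 to 384, and 1448977_at, at 425 to 596, had changes of 0.13 and 0.14 (adjusted p = 0.288 and 0.39). Their highest arrays were not the same, 220 min for 1436392_s_at and 1418147_at and 200 min for 1448977_at, and their correlations over the arrays differed. Pearson r was 0.71 for 1436392_s_at with 1418147_at, 0.32 for 1418147_at with 1448977_at and -0.26 for 1436392_s_at with 1448977_at.

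Gata3, a zinc finger factor of the inner root sheath and of barrier lipid synthesis, was the one listed gene whose arrays from 80 min all lay above the earlier ones. Its probe set 1448886_at read 518, 546, 516 and 544 in untreated cells and at 20, 40 and 60 min. It read 629, 591, 623, 570.4 and 581 from 80 to 160 min and 555, 592, 605 and 599.7 from 180 to 240 min. No array from 80 min was as low as any array up to 60 min, but the change along the line was small and did not pass (log2 change in 4 h 0.17 ± 0.074, SE; adjusted p = 0.122). A step between 60 and 80 min in place of the line, chosen after the data were seen, came to 0.16 ± 0.0411 (SE; adjusted p = 0.0096), against 25.1% of all probe sets called by that fit. Of the 17 probe sets, 5 had all arrays from 80 min below all earlier ones (both of Sox9, 1419051_at of Ovol1, and 1421995_at and 1421996_at of Tfap2a) and 1, that of Gata3, had them above. The 2 ranges did not overlap in 13.9% of all probe sets, 6.73% with the later arrays lower and 7.18% with them higher. By the step fit 13 of the 17 member probe sets were lower from 80 min and 1, that of Gata3, was higher.

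**Figure D2:**
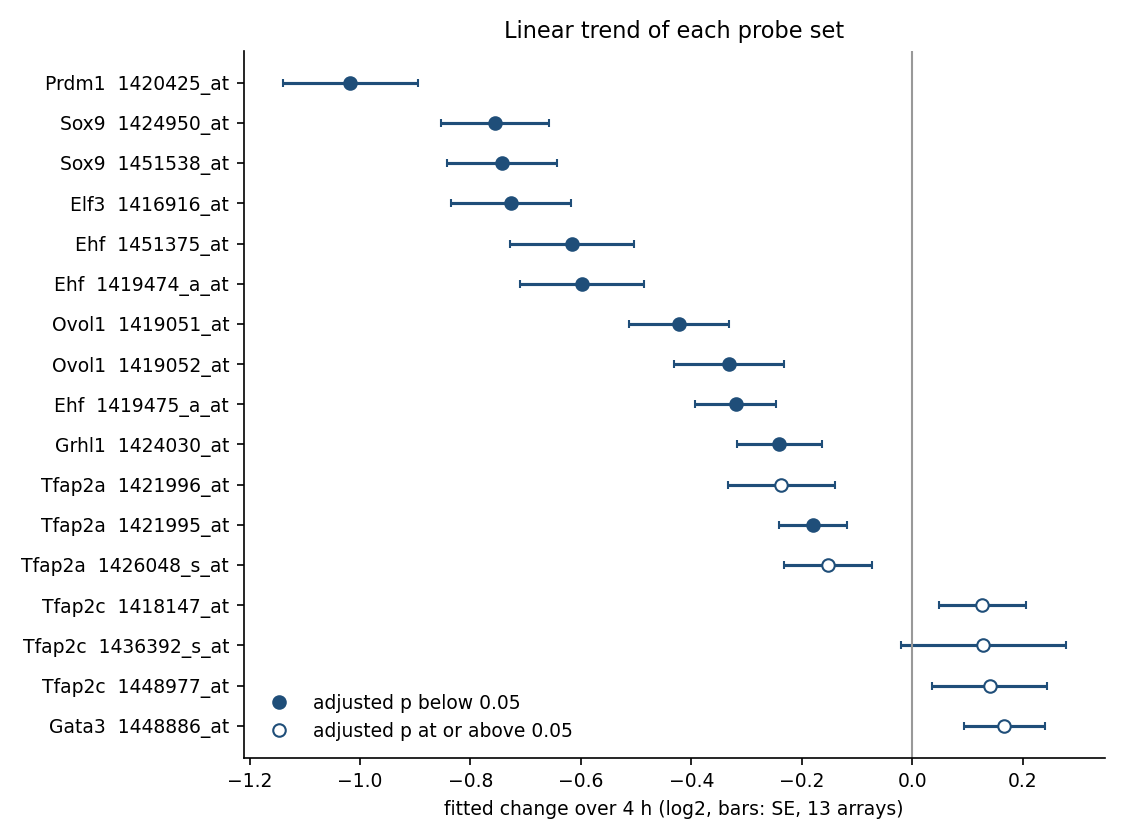
Fitted change over 4 h on the log2 scale for each of the 17 probe sets, with bars of 1 SE over 13 arrays. Filled points have an adjusted p below 0.05: these are 11 probe sets, all to the left of 0, from -1.02 for Prdm1 to -0.18 for 1421995_at of Tfap2a.

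Windows of 4 arrays were compared to leave the lone untreated array out, with neighbouring times standing in for replicates. At 180 to 240 min 7 of the 17 probe sets were lower than at 20 to 80 min and 0 were higher, against 11.7% called among all probe sets, 5.1% lower and 6.57% higher late. Prdm1 stood at 8.22 ± 0.114 late and 8.93 ± 0.241 early (log2 level, SD over 4 arrays each), a difference of -0.71 (adjusted p = 0.00522). The differences were -0.48 for Elf3 (adjusted p = 0.00825), -0.46 for 1451538_at of Sox9 (0.00546), and -0.27 for 1419051_at of Ovol1 (0.0192). The call of Ovol1 was lost without the 20 min (adjusted p = 0.0622), 40 min (0.0716) or 240 min array (0.0537). Grhl1, at -0.18 (adjusted p = 0.0526), and the brightest probe set of Ehf, at -0.21 (0.0533), missed the threshold. The other probe sets of Ehf were lower late, with differences of -0.44 for 1419474_a_at (adjusted p = 0.00607) and -0.46 for 1451375_at (0.0113). In 9 of the 17 probe sets every late array lay below every early one, and in 0 did they all lie above. Of all probe sets 13.9% had windows that did not overlap, 5.32% with the late one lower. Counted in either direction, 7 became 11 if the 80 min array was left out, where 19% of all probe sets were called. It became 13 when the early window was 0 to 60 min, where 24.7% were. Gata3 was among these 13, and was higher late by 0.14.

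A natural cubic spline with 3 degrees of freedom, which asks for change of any smooth shape, called 8 of the 17 probe sets against 12% of all. These were Prdm1, both probe sets of Sox9, all 3 of Ehf, Elf3 and 1419051_at of Ovol1. The smallest adjusted p among them was 0.000437, for 1451538_at of Sox9.

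The 40 min array was the highest of the course for 7 of the 17 probe sets, against 18.6% of all probe sets. The 240 min array was the lowest for 5, against 11.7% of all. Without the 40 min array 8 of the 17 had a trend, and the same count was reached without the untreated or the 240 min array. The share of all probe sets called was not counted for these omissions, so the count of 8 cannot be set against it. The part of any one array in the falls beyond these counts was not tested. The log2 ratio of the 3′ to the 5′ Gapdh control probe set, a sign of RNA quality, lay between -0.153 and -0.0934. With it as a covariate 11 of the 17 probe sets were called, and the share among all probe sets was not counted.

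Genes from the same DNA-binding family were set against each other within each array. The log2 difference of Ehf from Elf3 rose by 0.10 ± 0.0309 per hour (SE, 13 arrays; two-sided permutation p = 0.00669, adjusted over 2 pairs 0.0134), that is, Elf3 fell more steeply than the brightest probe set of Ehf. This was lost without the 240 min array (adjusted permutation p = 0.0524). It was also lost with the mean of the 3 probe sets of Ehf in place of 1419475_a_at, where the slope was 0.054 (adjusted permutation p = 0.0867). The difference of Tfap2a from Tfap2c changed by -0.091 ± 0.0392 per hour (permutation p = 0.0393, adjusted 0.0393). It missed the threshold without the untreated array or that of 40, 60, 120, 160, 180, 200, 220 or 240 min, with adjusted permutation p from 0.0181 to 0.123 over the 13 omissions. The pair of Grhl1 and Grhl3 could not be compared. Neighbouring times need not be independent, and permuting the arrays treats them as if they were.

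**Figure D3:**
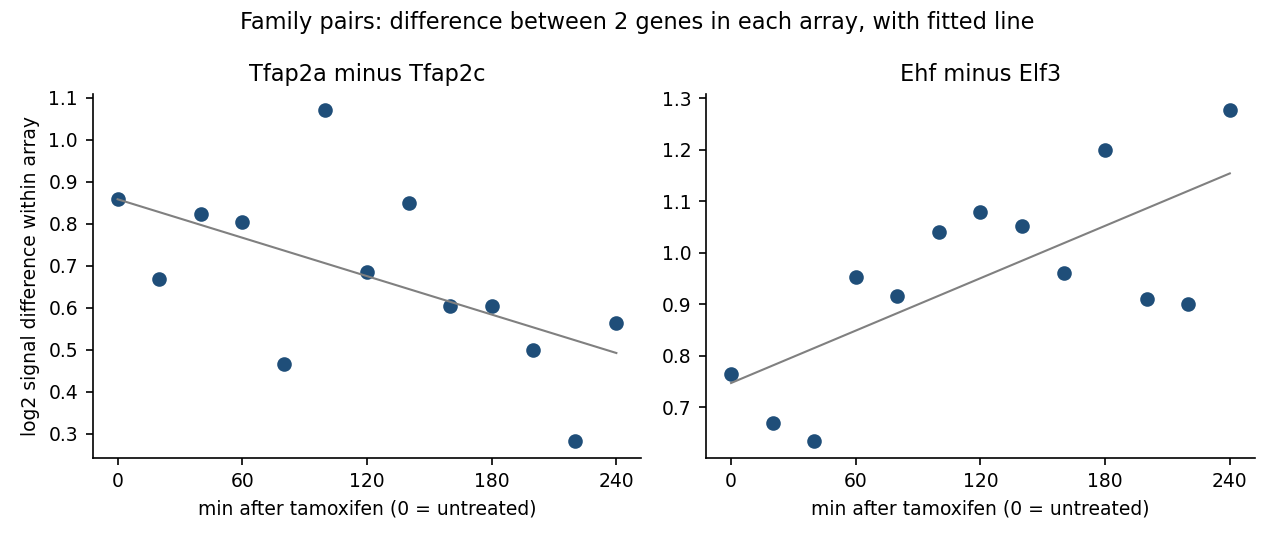
Log2 signal of one gene minus that of its family partner in each of 13 arrays, against min after tamoxifen, for the probe set with the highest mean of each gene, with the fitted line in grey. Probe sets differ in efficiency, so only the change over time can be read. The Ehf minus Elf3 points start at 0.76 in untreated cells, stand at 0.91 and 0.90 at 200 and 220 min, and are highest at 240 min, at 1.28. The Tfap2a minus Tfap2c points scatter widely around a falling line.

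Across the 9 genes, each by its brightest probe set, Elf3 and Prdm1 had the most similar course (Pearson r = 0.94 over 13 arrays), followed by Elf3 with Sox9 (0.93). Gata3 ran opposite to Sox9 (r = -0.81). All these points share the same 13 arrays, and any genes with a trend along the course correlate. Among 7831 other genes above the 40th percentile of level, those most like Prdm1 were Ccng2, an atypical cyclin, Sprr2d, a cornified envelope precursor, and Rnf11, a ubiquitin ligase, each with r = 0.98. In all, 123 genes had r above 0.9 with Prdm1.

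Other transcription factors of epidermal fate went both ways. Of 35 listed, 30 were on the array by a named probe set, and 6 rose and 6 fell, with a median change over 4 h of -0.015 against -0.0020 for all genes by their brightest probe set. Among all genes 13.1% rose and 10.8% fell. The largest rises were those of Rxra, the retinoid X receptor, 1.64-fold (adjusted p = 0.00103), Pou3f1, a POU factor of differentiating keratinocytes, 1.52-fold (0.00119), and Lhx2, a hair follicle stem cell factor, 1.37-fold (0.000186). Lhx2 was dim, with a mean level at percentile 32.4 of all probe sets. Hopx, a homeodomain protein without DNA binding, fell 1.63-fold (adjusted p = 0.00015), Cebpb, a factor of the suprabasal switch, 1.45-fold (0.000744), and the Notch target Hes1 1.36-fold (0.00504). Grhl2, which was measured where Grhl3 was not, rose 1.15-fold (adjusted p = 0.0291) and was chosen after its values were seen.

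Genes reported elsewhere as targets of the listed factors were counted in the same fit, where 13.1% of all genes rose and 10.8% fell. Of 17 measured genes of the EHF and ELF3 list 8 fell and 1 rose, with a median change of -0.35. Those that fell included Sprr1a, Sprr1b, Sprr2d, Sprr2h and Sprr3, which belong to 1 gene family. They were named after their values were seen, and the median is the value of Sprr2h. Ptgs2, which encodes the inducible cyclooxygenase, was 4.05-fold lower (adjusted p = 0.000128), Krt8, a simple epithelial keratin, 1.89-fold (0.0405), and Gjb2, a connexin, 1.63-fold (0.00122), while the TGF-beta receptor gene Tgfbr2 rose 1.16-fold (0.0258). From 80 min alone the slope per hour was -0.29 for Ptgs2, 0.013 for Krt8 and -0.060 for Gjb2. Late against early, Krt8 did not pass (adjusted p = 0.152). Without the 200 and 220 min arrays 10 of this list fell and 0 rose. In that setting 1986 of all 20393 probe sets fell and 1958 rose, against 2076 and 2495 with every array.

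In the grainyhead-like list 5 of 15 measured genes fell and 1 rose, where 10.8% of all genes fell and 13.1% rose. The tight junction genes Cldn3 and Cldn4 fell 2.03-fold and 1.75-fold (adjusted p = 0.00365 and 0.00392), the cornified envelope gene Lce1a1 fell 1.65-fold (0.00206), and the glycerol channel gene Aqp3 rose 1.53-fold (0.00433). In the arrays from 80 min the slopes per hour were -0.024 for Cldn3, 0.012 for Cldn4, -0.20 for Lce1a1 and 0.029 for Aqp3. In the PRDM1 and OVOL1 list 4 of 12 fell and 1 rose. Dusp16, a phosphatase of stress kinases and reported as repressed by PRDM1, fell 2.57-fold (adjusted p = 8.2e-05), Fos 1.59-fold (0.027) and Myc 1.45-fold (0.000602), while Zeb1, a mesenchymal repressor, rose 1.10-fold (0.0366) from a mean level at percentile 24.5 of all probe sets. From 80 min the slopes per hour were -0.22 for Dusp16, 0.087 for Fos and -0.054 for Myc. Late against early, Fos did not pass (adjusted p = 0.19). Without the 200 and 220 min arrays 3 of this list fell and 0 rose, so the call of Zeb1 was lost. In that setting 1986 of all 20393 probe sets fell and 1958 rose.

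In the AP-2 and GATA3 list only Krt5 passed among 11 measured genes, with a rise of 1.08-fold (adjusted p = 0.0195) that did not pass after median centring of the arrays. In the hair follicle and SOX9 list 4 of 20 fell and 3 rose, where 10.8% of all genes fell and 13.1% rose. The median change of this list was -0.0019. Inhba, the activin subunit gene, fell 2.76-fold (adjusted p = 0.000186), the follicle gene Plet1 2.36-fold (0.000203) and the chemokine gene Cxcl14 1.39-fold (0.00201). Besides Lhx2 (percentile 32.4 of mean level), the Hedgehog receptor gene Ptch1 rose 1.19-fold (adjusted p = 0.0104) and the activin antagonist gene Fst 1.18-fold (0.0385). Several of these target lists share genes, and targets found in other cells need not be targets here.

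**Figure D4:**
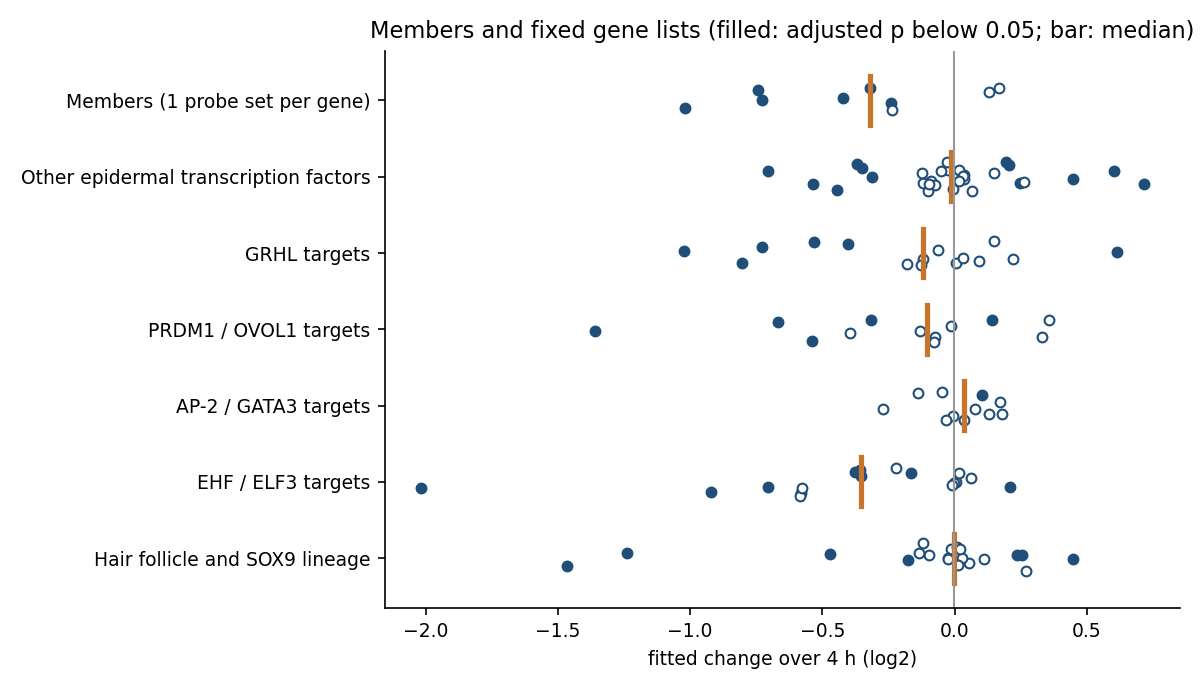
Fitted change over 4 h on the log2 scale for the 9 member genes and for the genes of 6 lists, 1 point per gene by its brightest probe set, with filled points for an adjusted p below 0.05, orange bars for list medians and a grey line at the median of all genes. The medians lie at -0.32 for the members, -0.35 for the EHF and ELF3 list and near 0 for the other epidermal transcription factors.

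Several members are also expressed by other cells: Sox9 and Tfap2a by melanocytes, Sox9 by chondrocytes, and Prdm1 and Gata3 by lymphocytes. Of the melanocyte markers 6 of 7 measured lay above the 40th percentile of level. Their percentiles ran from 24.8 for Kit to 93.9 for Dct, with Tyrp1 at 89.8 and Pmel at 89.5. Their summed intensity was 6127 to 7380 over the 13 arrays, and 1, Mitf, fell (1.27-fold, adjusted p = 0.0119). The T and B cell list had 1 of 11 above that percentile, the chondrocyte list 0 of 5 and the endothelial list 0 of 6, and no marker of these 3 lists passed. Of the macrophage and Langerhans cell list 3 of 10 lay above it and 1, Cd68, fell (1.46-fold, adjusted p = 0.00151), while Csf1r had a change of 0.045 (0.842). The fibroblast list had 4 of 11 above it and 0 called. Of 12 measured keratinocyte markers 1 rose (Krt5) and 1 fell (Epcam, 1.30-fold, adjusted p = 0.0113). Without the 200 and 220 min arrays 2 T and B cell markers and 2 macrophage markers fell, and 0 melanocyte markers. Among all 20393 probe sets 1986 fell and 1958 rose without those arrays. Of the keratinocyte markers 3 rose and 1 fell in that setting. The part of such cells in the levels of the listed factors was not tested.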

How the data were processed

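Total RNA was labelled and hybridised to Affymetrix arrays, per the labels' protocols, and the deposited values are intensity values on a linear scale, 1 per probe set and array, already close to a common level. What software made them is not stated in the labels. They were used as log2(intensity + 16), so a fold understates the change of dim genes. The platform table named 1 gene for 20393 of 22690 probe sets, several for 691 and none for 1606, and only the first entered tests. Symbols were updated with a RefSeq table of GRCm38.p6.

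Fits used limma 3.58.1 in R 4.3.3 (eBayes with intensity trend, two-sided, Benjamini-Hochberg over all 20393 probe sets), and their steps were tested on simulated data. No probe set was left out as dim, because the members are all probe sets of the listed genes. The 4 levels of the window fit were untreated, 20 to 80, 100 to 160 and 180 to 240 min. Pairs of genes were tested with 100000 permutations of the arrays. A gene's representative was its probe set with the highest mean. All member probe sets are described. From each list up to 3 rises and 3 falls past the threshold are named, and for Prdm1, the largest fall, the 3 most similar genes (no member rose). The members and lists were chosen with earlier results of these data known. Alternatives covered filters, pseudocounts, scaling, moderation, array weights, RNA quality, time scale, parts of the course and each array left out.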

Additional observations from a re-analysis of the deposited data

Results flagged for a closer look

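Within the 3 windows of 4 arrays, 3 of 51 sets of values had 1 array far from the other 3, where chance alone flags about 1 in 20. Elf3 read 333 at 100 min, against 302 to 306 from 120 to 160 min. The Ehf probe set 1419474_a_at read 565 at 40 min, against 425 to 443 in the other arrays from 20 to 80 min. The Tfap2c probe set 1436392_s_at read 1149 at 220 min, against 898 to 928 in the other arrays from 180 to 240 min.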

How the results depend on the processing

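The trend count of 11 probe sets lay between 8 and 12 when each array was left out, and the spline count of 8 between 6 and 8. With array weights, whose estimation stopped before it converged, the spline called 12, against 31.2% of all probe sets. The late against early count of 7, taken in either direction, lay between 6 and 11. It came to 11 with array weights (23.9% of all probe sets) and to 13 with 0 to 60 min as the early window. With 1 probe set per gene and dim genes left out, 6 of 9 genes had a trend and 5 passed the spline. The share among all genes was not counted for that setting. With an array left out, the share was counted only for the windows without the 80 min array. With a block for the step at 60 to 80 min, in the 9 arrays from 80 min alone, and in the 4 arrays up to 60 min alone, 0 of 17 had a trend (limma), against 0%, 0.0147% and 0.142% of all probe sets. Step and time run together, and fewer arrays have less power, so a slope may still be there. The step in place of the line was chosen after seeing the data.

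Some signs turned in fits where the slope did not pass, among them 1419474_a_at of Ehf and 1421995_at of Tfap2a, which had passed over the whole course. With the step as a block the turned slopes were Gata3 (-0.013 per hour), 1426048_s_at (0.025) and 1421996_at (0.029) of Tfap2a. From 80 min alone the same 3 stood at -0.018, 0.018 and 0.024. Up to 60 min 1419474_a_at of Ehf was at 0.059, the Tfap2a probe sets 1426048_s_at, 1421995_at and 1421996_at at 0.11, 0.0075 and 0.079, and 1448977_at of Tfap2c at -0.060. For 1436392_s_at of Tfap2c the slope was -0.00081 without the 220 min array and -0.0084 without the 200 and 220 min arrays, its late minus early difference -0.013 and -0.012, and its step in place of the line -0.070. Over omissions of each array these reached 0.047 per hour and 0.10.

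Over omissions of each array the slope difference of Ehf from Elf3 lay between 0.085 and 0.12 per hour and that of Tfap2a from Tfap2c between -0.11 and -0.066. With the mean of all probe sets the first was 0.054, and with the step as a block 0.051; the cause was not tested. No paired analysis was possible because each time has 1 array and the labels carry no replicate numbers.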
